A study of Mus musculus with 23 samples.

Results

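Leptin (Lep) and 6 further genes of adipocyte signalling, Adipoq, Retn, Cfd, Rbp4, Nrg4 and Mest, were followed by RNA sequencing in 3 tissues of mice given oxaliplatin. The genes were taken by symbol from a given set of names, and they are 7 of the 29894 genes that the 3 count tables hold together. Each of the 7 is present in the fat table (26702 genes), the muscle table (20628 genes) and the hypothalamus table (25623 genes). Oxaliplatin is a platinum drug used against colorectal cancer. All animals were C57BL/6 mice, an inbred laboratory strain, and the groups differed in whether they were given vehicle or oxaliplatin at 10 mg/kg, with tissues taken after 8 weeks of treatment. The dosing schedule and the age and sex of the mice are details not given in the sources used here. Subcutaneous white fat gave 3 vehicle and 4 oxaliplatin libraries, tibialis anterior muscle 4 and 5, and hypothalamus 3 and 4, 1 library per mouse. For oxaliplatin mouse 5 in muscle the title and the treatment entry disagree, the entry naming vehicle, and the library was counted by its title.

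Adipokines are proteins that fat cells release into the blood or the surrounding tissue. Leptin reports the size of the fat store to the hypothalamus, where its receptor acts through JAK2 and STAT3 to restrain feeding, and its transcript is known to be low in fasted or lean animals. Adiponectin (Adipoq) raises insulin sensitivity, resistin (Retn) opposes insulin action in mice, adipsin (Cfd) is complement factor D, the protease that starts the alternative complement pathway, retinol-binding protein 4 (Rbp4) carries vitamin A in plasma, and neuregulin 4 (Nrg4) signals from fat to the ErbB4 receptor. Mest is not a secreted hormone: it is an imprinted gene for an enzyme-like protein of the endoplasmic reticulum, known for its link to the expansion of fat tissue, and it is described here with the others for that reason.

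The genes lie on 6 chromosomes of GRCm38 (GENCODE M21), and all are protein coding. Lep (ENSMUSG00000059201) spans bases 29060220 to 29073877 of chromosome 6, and Mest (ENSMUSG00000051855) bases 30723547 to 30748465 of the same chromosome, both on the plus strand. Adipoq (ENSMUSG00000022878) lies on chromosome 16 from 23146536 to 23158028, Retn (ENSMUSG00000012705) on chromosome 8 from 3655770 to 3660110 and Cfd (ENSMUSG00000061780) on chromosome 10 from 79890853 to 79892655, all on the plus strand. Rbp4 (ENSMUSG00000024990) lies on chromosome 19 from 38116629 to 38125281 and Nrg4 (ENSMUSG00000032311) on chromosome 9 from 55220222 to 55326844, both on the minus strand. The 3′ end of Mest overlaps Copg2 on the opposite strand, and Nrg4 overlaps Fbxo22 on the opposite strand. How strand was used in counting is a detail not given in the sources used here, so reads of these overlaps cannot be assigned with certainty.

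The 250 bases before the start site are shown for the 4 genes that were lower in every oxaliplatin fat library than in every vehicle library, and for Cfd, which was higher in every one. They are RefSeq promoters of GRCm38.p6, on the strand of the gene, and the window ends at the base before the start. Capitals mark TTNNGCAA on either strand, the core that C/EBP factors of adipocytes are known to bind, and TATAA on the gene's strand. The windows are chr6:29059971-29060220 (plus strand) for Lep, chr19:38124812-38125061 (minus strand) for Rbp4, chr9:55283626-55283875 (minus strand) for Nrg4, chr6:30737800-30738049 (plus strand) for Mest and chr10:79890603-79890852 (plus strand) for Cfd. For Rbp4 and Mest, which have several RefSeq starts, start 2 is shown, and the other starts are described after the sequences. Part of the Rbp4 window lies in an exon of a longer Rbp4 transcript, and the Nrg4 and Mest starts shown lie inside their GENCODE genes.
Lep: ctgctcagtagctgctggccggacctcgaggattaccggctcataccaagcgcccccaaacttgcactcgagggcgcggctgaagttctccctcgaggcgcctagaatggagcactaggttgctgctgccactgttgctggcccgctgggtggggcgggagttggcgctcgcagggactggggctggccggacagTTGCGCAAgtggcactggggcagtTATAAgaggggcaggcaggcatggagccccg
Rbp4: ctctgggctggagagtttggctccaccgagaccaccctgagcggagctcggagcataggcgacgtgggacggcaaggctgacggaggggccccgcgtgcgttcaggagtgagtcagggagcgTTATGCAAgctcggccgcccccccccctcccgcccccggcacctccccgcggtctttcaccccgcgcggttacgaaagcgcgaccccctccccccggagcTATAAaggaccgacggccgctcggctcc
Nrg4: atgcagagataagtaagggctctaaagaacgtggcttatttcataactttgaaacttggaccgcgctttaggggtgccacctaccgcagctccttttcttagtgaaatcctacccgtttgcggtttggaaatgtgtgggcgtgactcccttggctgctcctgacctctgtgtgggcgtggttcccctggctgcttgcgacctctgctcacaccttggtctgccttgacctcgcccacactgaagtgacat
Mest: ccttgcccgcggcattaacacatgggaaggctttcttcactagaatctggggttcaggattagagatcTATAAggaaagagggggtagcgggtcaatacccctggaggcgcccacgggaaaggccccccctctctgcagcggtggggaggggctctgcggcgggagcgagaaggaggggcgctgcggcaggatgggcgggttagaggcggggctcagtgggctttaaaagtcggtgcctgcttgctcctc
Cfd: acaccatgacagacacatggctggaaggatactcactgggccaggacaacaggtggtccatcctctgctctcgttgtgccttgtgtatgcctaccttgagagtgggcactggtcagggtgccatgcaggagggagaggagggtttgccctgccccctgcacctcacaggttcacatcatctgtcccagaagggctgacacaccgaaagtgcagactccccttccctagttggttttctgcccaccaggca

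Both motifs stood together in the Lep window and in the Rbp4 window of start 2. In Lep, TTGCGCAA, a palindrome that matches TTNNGCAA on both strands, spans bases -55 to -48 and TATAA bases -31 to -27, counted back from the start. In Rbp4, TTATGCAA spans bases -128 to -121 and TATAA bases -28 to -24. The window of Rbp4 start 1 holds neither, so the match in Rbp4 depends on the start. The Mest window of start 2 holds TATAA at -182 to -178, that of start 3 holds it at -185 to -181, and that of start 1 holds no TATAA but TTGCAGAA, a TTNNGCAA match on the opposite strand, at -155 to -148. For Mest too the choice of start decides which motif is found. The Nrg4 and Cfd windows hold neither motif in the orientation marked. Of 32851 RefSeq promoter windows of the same 250 bases, 9.56% hold TTNNGCAA and 22.8% hold TATAA when both strands are searched, and 0.164% hold TTGCGCAA. The matches describe letters in a window, and no binding was measured.

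Libraries held 16.5 to 22.7 M counts in fat, 22.4 to 32.2 M in muscle and 23.6 to 28.5 M in hypothalamus (M, mega). Levels below are CPM (counts scaled to the TMM-normalised library size), each fold change is the log2 ratio oxaliplatin/vehicle ± SE, and calls are edgeR quasi-likelihood adjusted p-values under 0.05, adjusted over all genes tested in a tissue. Marker sums were highest in the labelled tissue. The 10 adipocyte markers summed to 13639 to 31394 CPM in fat, 1077 to 2134 CPM in muscle and 58.0 to 174 CPM in hypothalamus. The 8 skeletal muscle markers summed to 130675 to 176095 CPM in muscle and 11.9 to 17.6 CPM in hypothalamus. The 7 neuronal markers summed to 2225 to 3128 CPM in hypothalamus and to at most 7.63 CPM in the other tissues. Several fat libraries stood apart. Skeletal muscle markers summed to 121927 CPM in fat from vehicle mouse 4, against 16.1 to 3027 CPM in the other 6 fat libraries. Fibroblast and preadipocyte markers (8 of 8 present) summed to 5886 to 8242 CPM with vehicle. In oxaliplatin mice 2 to 4 they summed to 744 to 1272 CPM, and in oxaliplatin mouse 5 to 11426 CPM. These markers did not move evenly: Col3a1 was 2483 to 3327 CPM with vehicle and 43.3 to 74.1 CPM in oxaliplatin mice 2 to 4. Dcn, at 439.9, 705 and 617 CPM in those mice and 411 to 583 CPM with vehicle, overlapped. So did Pdgfra, at 90.3, 167 and 107 CPM and 95.6 to 163 CPM. Lymphocyte markers (8 of 8 present) summed to 5.39 to 7.51 CPM with vehicle and 5.41 CPM in oxaliplatin mouse 2, but to 31.5, 37.7 and 136 CPM in oxaliplatin mice 3, 4 and 5. Because fat from oxaliplatin mouse 5 differed from the other oxaliplatin libraries, the members and the count called in each gene list in fat are given with and without it. Mouse 5 was singled out by its values in these same data. Adjusted p-values and calls without it are therefore descriptions and not independent tests.

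In fat all 7 genes were well above the floor, and they did not move as a block. Lep, Rbp4, Nrg4 and Mest were lower in each of the 4 oxaliplatin libraries than in each of the 3 vehicle libraries, by 3.00-fold (Nrg4) to 8.55-fold (Lep) in the fit. Cfd was 1.83-fold higher and did not overlap either, while Adipoq and Retn, at 1.27-fold and 1.29-fold lower, overlapped. No member was called by edgeR in fat, where 0 of 19870 genes were called (0%), with 5178 genes (26.1%) and 4 of the 7 members at an unadjusted p under 0.05. The background for groups that do not overlap was 11.2% of genes lower and 10.3% higher, beside 4 of 7 members lower and 1 of 7 higher. DESeq2 called Cfd, Rbp4, Nrg4 and Mest (2428 genes in all, 12.2%), and limma-voom with sample quality weights called these, Lep and Adipoq (5083 genes, 25.6%). Without oxaliplatin mouse 5, edgeR called Lep, Retn, Cfd, Rbp4 and Mest (4969 of 19472 genes, 25.5%), so 5 of 7 members stand beside that background.

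**Figure D1:**
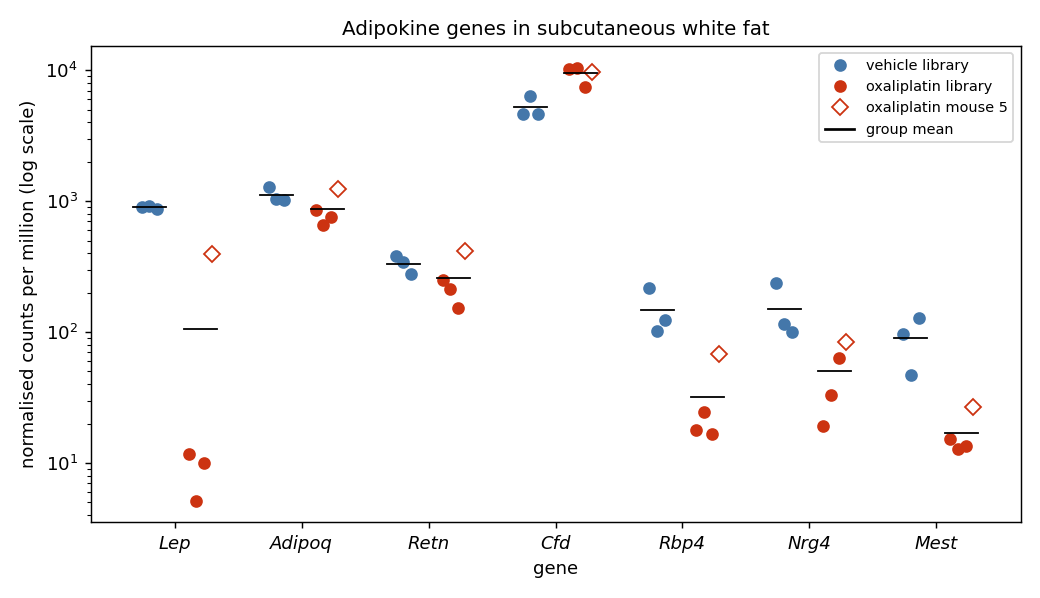
CPM (log axis) of the 7 genes in each fat library, with 3 vehicle and 4 oxaliplatin libraries per gene; the diamond is oxaliplatin mouse 5 and the bar is the group mean. Lep lies at 875 to 911 CPM in the vehicle libraries and at 5.16 to 11.7 CPM in oxaliplatin mice 2 to 4, with mouse 5 at 394 CPM.

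Lep had the widest difference and also the widest spread. It was 909, 911 and 875 CPM in vehicle mice 1, 2 and 4, and 11.7, 5.16, 9.91 and 394 CPM in oxaliplatin mice 2 to 5. The low libraries still held 216, 94 and 206 reads of Lep, so they were well above 0. The vehicle libraries differed from each other by little, 3 oxaliplatin libraries were near the floor of the plot and mouse 5 lay between the groups. The means were 898 ± 20.3 CPM (SD, n = 3) and 105 ± 192 CPM (SD, n = 4), and the log2 fold change of -3.10 ± 1.49 was not called (edgeR adjusted p = 0.230). Without oxaliplatin mouse 5 it was -6.65 (adjusted p = 2e-04).

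Leptin and adiponectin transcripts separated from each other. The ratio of Lep to Adipoq CPM was 0.705, 0.872 and 0.862 in vehicle mice 1, 2 and 4. In oxaliplatin mice 2 to 5 it was 0.0137, 0.00785, 0.0130 and 0.318. In the vehicle libraries Adipoq was thus 1.15 to 1.42 times Lep, and in oxaliplatin mice 2 to 4 it was 73.0 to 127 times Lep.

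Adipoq was 1288, 1045 and 1015 CPM in vehicle mice 1, 2 and 4 and 853, 657, 759.7 and 1238 CPM in oxaliplatin mice 2 to 5. Oxaliplatin mice 2 to 4 lay below all vehicle libraries, and mouse 5 lay among them. The log2 fold change was -0.35 ± 0.25 (edgeR adjusted p = 0.387). Retn followed nearly the same order, with 379, 343 and 279.6 CPM in the vehicle libraries and 249, 212, 154 and 416 CPM in oxaliplatin mice 2 to 5 (-0.37 ± 0.32, edgeR adjusted p = 0.475). Oxaliplatin mouse 5 held the highest Retn level of the 7 libraries. Without that library Retn was at -0.70 and was called (adjusted p = 0.0436), and Adipoq at -0.56 was not (adjusted p = 0.0532).

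Rbp4, the plasma retinol carrier, was 217, 101 and 123 CPM in vehicle mice 1, 2 and 4. In oxaliplatin mice 2 to 5 it was 17.8, 24.3, 16.6 and 68.5 CPM, with mouse 5 again the highest of its group. The means were 147 ± 61.4 and 31.8 ± 24.7 CPM (SD, n = 3 and 4), and the log2 fold change was -2.21 ± 0.56 (edgeR adjusted p = 0.116). The difference exceeded the spread within both groups but was not called over all genes. Without oxaliplatin mouse 5 it was -2.91 (adjusted p = 0.00223).

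Nrg4, the ErbB4 ligand, was 235, 116 and 100.4 CPM with vehicle and 19.1, 33.1, 63.9 and 84.3 CPM in oxaliplatin mice 2 to 5. The 2 groups came close, at 84.3 and 100.4 CPM, and the oxaliplatin libraries were spread over their whole range. The log2 fold change was -1.59 ± 0.53 (edgeR adjusted p = 0.141), and without mouse 5 it was -1.96 (adjusted p = 0.0509).

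Mest had the smallest p of the 7 genes in fat. It was 96.5, 46.6 and 128 CPM in vehicle mice 1, 2 and 4, and 15.2, 12.8, 13.4 and 26.6 CPM in oxaliplatin mice 2 to 5. The vehicle libraries varied more than the oxaliplatin libraries, in which mouse 5 was again highest but closer to its group than for Lep. The log2 fold change was -2.41 ± 0.39 (edgeR adjusted p = 0.0845), and -2.71 without mouse 5 (adjusted p = 0.00433). Without vehicle mouse 4, the library high in muscle markers, it was -2.05 (adjusted p = 0.212). Copg2, whose gene overlaps Mest on the other strand, was at -0.42 ± 0.15 (edgeR adjusted p = 0.148).

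Cfd, the adipsin gene, was the most abundant of the set and the only member that was higher. It was 4652, 6321 and 4606 CPM with vehicle, and 10298, 10477, 7386 and 9756 CPM in oxaliplatin mice 2 to 5. Here mouse 5 lay within the range of the other oxaliplatin libraries. The log2 fold change was 0.87 ± 0.25 (edgeR adjusted p = 0.122), and it was 0.85 without mouse 5 (adjusted p = 0.0357).

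Compared per length of exon, the order of levels in vehicle fat was Cfd (5632 ± 1059.7 CPM per kilobase, SD, n = 3), Adipoq (808 ± 108), Lep (268 ± 6.06), Retn (211 ± 31.8), Rbp4 (109 ± 45.7), Nrg4 (24.8 ± 12.1) and Mest (22.9 ± 10.5). Neighbours in this order did not overlap over the vehicle libraries, except Nrg4 and Mest. With oxaliplatin the mean per kilobase of Lep was 31.3 CPM, below Retn at 163 CPM. In oxaliplatin mice 2 to 4 Lep held 1.54 to 3.48 CPM per kilobase, next to Nrg4 (3.14 to 10.5) and Mest (3.26 to 3.85).

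The levels were then set beside the fat cell's own markers, since bulk fat cannot tell fewer adipocytes from less RNA per adipocyte. The 10 adipocyte markers, lipid droplet and lipolysis genes such as Plin1 and Cidec, summed to 22021 to 31394 CPM with vehicle and 13639 to 20849.7 CPM with oxaliplatin, with no overlap. Their mean log2 CPM lay 1.27, 1.29 and 1.20 below the vehicle mean in oxaliplatin mice 2, 3 and 4, and 0.21 below it in mouse 5. The markers did not move evenly: Plin1 was 1437 to 2248 CPM with vehicle and 123, 213, 368 and 1544 CPM in oxaliplatin mice 2 to 5, while Cidec was 1554 to 1922 CPM and 1426, 1166, 954 and 1761 CPM. Of the 10 markers 8 had a log2 fold change below 0 and 2 above it, Lpl, which encodes lipoprotein lipase, at 0.04 and Pnpla2, which encodes the triglyceride lipase ATGL, at 0.50 (1557 to 2393 CPM with vehicle, 1793 to 4097 CPM with oxaliplatin). The marker level is therefore a mean over genes that differed in direction. The part of this shift in the members' differences is described by subtracting the marker level of each library.

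Relative to these markers the 7 genes split into 3 kinds. Cfd was 1.68 ± 0.43 above the marker level with vehicle and 3.55 ± 0.56 above it with oxaliplatin (log2 units, SD, n = 3 and 4), a difference of 1.86 (exact permutation p = 0.0286, two-sided). Adipoq, lower in raw level, was higher relative to the markers by 0.61 (exact permutation p = 0.0286), and Retn by 0.54 (exact permutation p = 0.0857). Rbp4 stayed lower, at -1.39 (exact permutation p = 0.0286), as did Mest, at -1.36 (exact permutation p = 0.0286). Lep was at -4.34 with groups that did not overlap (exact permutation p = 0.0571), and oxaliplatin mouse 5, at -1.81 relative to the markers, lay below all vehicle libraries, which were at -1.12 to -0.69. Nrg4 overlapped once the marker level was subtracted (-0.70, exact permutation p = 0.171). With 35 arrangements of 7 libraries, 0.0286 is the smallest p this test can give. It was computed for 7 genes, and these p-values are not adjusted for that number. With the median of the markers in place of their mean, the p for Adipoq and for Rbp4 was 0.0571, with differences of 0.37 and -1.64 (exact permutation tests).

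**Figure D2:**
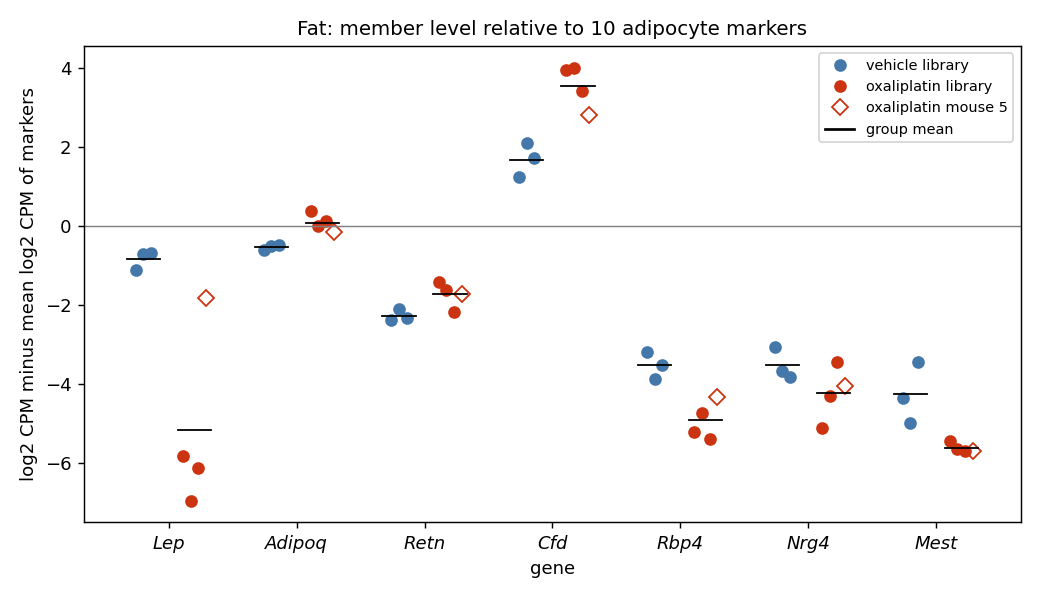
Log2 CPM of each gene minus the mean log2 CPM of the 10 adipocyte markers, for each of the 7 fat libraries; the diamond is oxaliplatin mouse 5, the bar is the group mean and the grey line at 0 is the marker level. Cfd and Adipoq lie higher with oxaliplatin, Lep, Rbp4 and Mest lie lower, and Retn and Nrg4 overlap.

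Among receptors and carriers of these proteins, 0 of 9 genes tested in fat were called, with a median log2 fold change of 0.15 against 0.03 over all genes. Lepr, the leptin receptor, was 5.94, 5.83 and 5.17 CPM with vehicle and 18.9, 30.9, 29.0 and 15.5 CPM in oxaliplatin mice 2 to 5. All oxaliplatin libraries were higher, mouse 5 included, with a log2 fold change of 2.06 ± 0.28 (edgeR adjusted p = 0.0751). Erbb4, the receptor for neuregulin 4, was at -1.44 ± 0.45 (adjusted p = 0.131), and Cdh13, which encodes T-cadherin and binds adiponectin, at 0.57 ± 0.21 (adjusted p = 0.154). Without oxaliplatin mouse 5, 3 of 8 were called, beside 25.5% of all genes. These were Lepr at 2.21, Cdh13 at 0.68 and Erbb4 at -1.69 (edgeR adjusted p = 0.000985, 0.0289 and 0.034). Stra6l, a receptor for retinol-binding protein, was at 2.30 ± 1.09 on mean levels under 1 CPM (adjusted p = 0.223).

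Of 11 other leptin signalling genes, 0 were called in fat (median 0.22, 2 at an unadjusted p under 0.05). Without oxaliplatin mouse 5, 2 of the 11 were called, 1 in each direction, beside 25.5% of all genes. Stat3, its main transcription factor, was at 0.60 ± 0.21 (edgeR adjusted p = 0.148), Stat5b at -0.74 ± 0.28 (adjusted p = 0.162) and the phosphatase Ptpn2 at 0.39 ± 0.17 (adjusted p = 0.200). Of 10 genes of the alternative complement pathway, in which Cfd acts, none was called either (median -0.12), and 2 had an unadjusted p under 0.05. These were Masp1, a protease gene of the complement lectin pathway whose product can activate pro-factor D, at 3.74 ± 0.90 (edgeR adjusted p = 0.114), and C3, the central complement component, at 0.67 ± 0.25 (adjusted p = 0.153). C3 averaged 1229.7 ± 273 CPM in the 3 vehicle libraries and 1963 ± 380.3 CPM in the 4 oxaliplatin libraries, and the groups did not overlap, as for Cfd. Cfb, the substrate of factor D, was at -0.76 ± 0.50 (adjusted p = 0.357). Leaving out oxaliplatin mouse 5, 3 of 10 were called, 2 higher and 1 lower, near the 25.5% of all genes called in that fit. Among them were Masp1 at 4.11 (edgeR adjusted p = 0.00228) and Cfb at -1.49 (adjusted p = 0.000506), while C3 at 0.55 was not called (adjusted p = 0.103).

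Of 29 other adipokine genes tested in fat, 0 were called, 9 had a log2 fold change above 0 and 20 below 0 (median -0.51, against 0.03 over all genes). Groups did not overlap for 6 of the 29 on the lower and 2 on the higher side, beside 11.2% and 10.3% of all genes. Sfrp5, a secreted Wnt inhibitor, had 79.1, 134 and 123 CPM with vehicle and 18.1, 26.3, 24.1 and 20.1 CPM in oxaliplatin mice 2 to 5, so mouse 5 did not stand apart for it (-2.34 ± 0.22, edgeR adjusted p = 0.0751). C1qtnf7, a relative of adiponectin, was at -1.36 ± 0.34 (adjusted p = 0.116). Gpx3, the secreted glutathione peroxidase, was 259, 452 and 529.8 CPM with vehicle and 3763, 2493, 2791 and 579 CPM in oxaliplatin mice 2 to 5 (2.54 ± 0.63, adjusted p = 0.115). In Gpx3 oxaliplatin mouse 5 again lay close to the vehicle libraries. Without that library 19 of 28 were called by edgeR, 4 higher and 15 lower, and the median was -0.76, against 0.01 over all genes and 25.5% of all genes called.

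The adipocyte transcription factors gave values in both directions (12 tested, 0 called, 5 above and 7 below 0). Klf15 was at 1.24 ± 0.30 (edgeR adjusted p = 0.114), Cebpd, a C/EBP factor, at 2.01 ± 0.61 (adjusted p = 0.128), Nr3c1, the glucocorticoid receptor, at -0.62 ± 0.21 (adjusted p = 0.142) and Ebf2 at -0.32 ± 0.11 (adjusted p = 0.151). With mouse 5 left out, 7 of 12 were called, 4 higher and 3 lower, beside 25.5% of all genes. Among them were Klf15 (1.41), Cebpd (2.32) and Nr3c1 (-0.81). Of 5 genes for the folding and assembly of adiponectin, 0 were called. Pdia4 was at 0.44 ± 0.11 (adjusted p = 0.114) and P4hb at 0.30 ± 0.15 (adjusted p = 0.239), both disulfide isomerase genes and both with groups that did not overlap on the higher side. With mouse 5 left out, Pdia4 was the 1 gene of the 5 called (0.45, edgeR adjusted p = 0.0268), beside 25.5% of all genes. Gstk1 was at -0.35 ± 0.18 and Ero1l, an oxidase that serves these isomerases, at 0.10 ± 0.11.

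Mest belongs to a network of imprinted growth genes, of which 13 were tested in fat and 0 called (3 above and 10 below 0, median -0.60, Mest included). Klf14, a maternally expressed transcription factor gene near Mest on chromosome 6, was 5.07, 3.12 and 9.30 CPM with vehicle and 0.270, 0.0549, 0 and 0.882 CPM in oxaliplatin mice 2 to 5 (edgeR adjusted p = 0.114). Every oxaliplatin library lay below every vehicle library. Plagl1 was at -1.25 ± 0.43 (adjusted p = 0.143), and Grb10, an adaptor that restrains insulin receptor signalling, was on the higher side at 0.69 ± 0.20 (adjusted p = 0.122). Leaving out oxaliplatin mouse 5, 8 of 13 were called, 2 higher and 6 lower, beside 25.5% of all genes. Mest, Klf14, Plagl1 and Grb10 were among them.

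The genes with the pattern most like Lep over the 7 fat libraries were found by the root mean square difference of centred log2 CPM among 13922 genes. They were Slc6a13, a transporter gene (0.44), Nnat (0.57), Sncg, which encodes gamma-synuclein (0.63), Scd1, the stearoyl-CoA desaturase (0.78), and Ncan, which encodes a proteoglycan (0.80). Slc6a13 averaged 36.0 ± 3.82 CPM with vehicle and 4.10 ± 7.30 CPM with oxaliplatin, with a median of 0.487 CPM. Among the 7 genes themselves, Adipoq and Retn were most alike (0.23), followed by Rbp4 and Mest (0.51), and Lep and Cfd were least alike (3.58). The nearest genes were Degs1, Pcca and Ptpn4 for Adipoq, Pitpnm2os1, Zfp703 and Zfp366 for Retn, and Utp14a, Ppan and Vps37b for Cfd. They were Bmp3, Smoc2 and Tmem45b for Rbp4, Cd1d2, Esrrg and Apol6 for Nrg4, and Dclk3, Tmem182 and Fhl1 for Mest. These likenesses rest on 7 libraries and are descriptions.

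In tibialis anterior muscle the same genes were scarce, other than Cfd, which reached 165 CPM. The 7 genes differed more between mice than between groups. All 7 passed the filter, 0 were called (background 24 of 14737 genes, 0.163%), and all 7 overlapped between the groups, where 3.89% of genes did not. Lep was 0.328, 0.366, 8.56 and 24.9 CPM in vehicle mice 1 to 4 and 0.0328, 2.18, 0.350, 3.41 and 1.90 CPM in oxaliplatin mice 1 to 5, the lowest value being 1 read. Vehicle mice 3 and 4 were the highest of the 9 libraries and vehicle mice 1 and 2 were among the lowest. The log2 fold change of -2.42 ± 1.31 was not called (edgeR adjusted p = 0.634), and without vehicle mouse 4 it was -0.96.

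Adipoq and Cfd had the same high and low vehicle mice. Adipoq was 0.738, 0.937, 17.1 and 28.8 CPM in vehicle mice 1 to 4 and 2.72, 6.94, 0.700, 9.00 and 8.41 CPM in oxaliplatin mice 1 to 5 (-1.10 ± 1.08, edgeR adjusted p = 0.859). Cfd was 7.51, 7.62, 122 and 165 CPM in vehicle mice 1 to 4 and 47.5, 45.9, 9.45, 61.8 and 106 CPM in oxaliplatin mice 1 to 5 (-0.48 ± 1.02, adjusted p = 0.958). Cidec, the lipid droplet gene among the adipocyte markers, was 1.15, 1.30, 18.1 and 42.1 CPM and 6.27, 6.83, 1.55, 12.3 and 19.2 CPM in the same libraries, and Plin1, another, lay at 0.0814 to 2.15 CPM in all 9. Vehicle mice 3 and 4 exceeded vehicle mice 1 and 2 in Cidec as in Adipoq and Cfd, and how much fat tissue the muscle samples held was not tested. Over all 10 adipocyte markers, several of which muscle also expresses, the sums were 1077 to 1915 CPM with vehicle and 1544 to 2134 CPM with oxaliplatin.

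**Figure D3:**
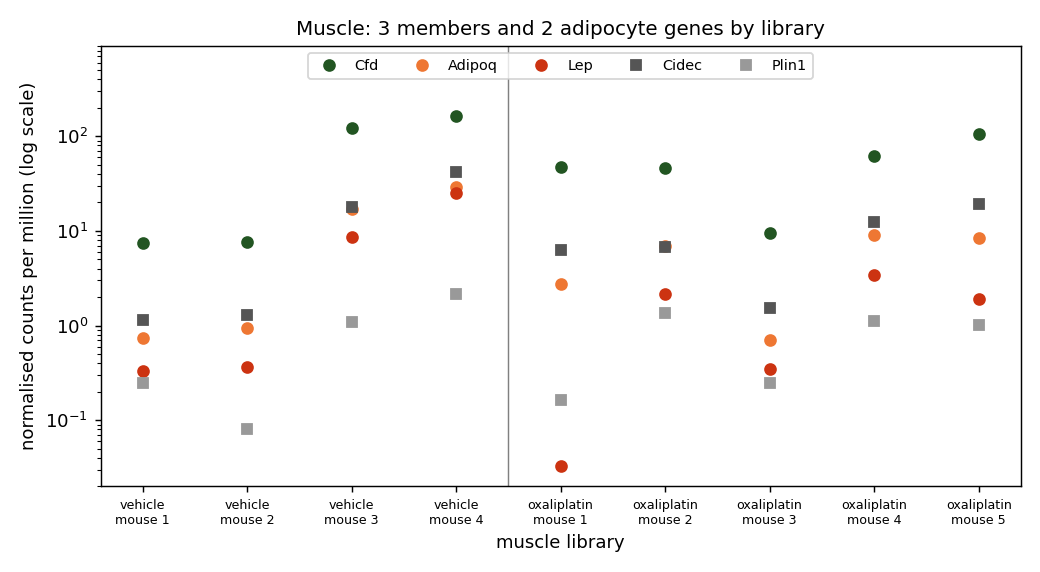
CPM (log axis) of Lep, Adipoq and Cfd (circles) and of the adipocyte genes Cidec and Plin1 (squares) in the 9 muscle libraries, with the 4 vehicle libraries left of the grey line. Vehicle mice 3 and 4 lie above vehicle mice 1 and 2 for each of the 5 genes, and in oxaliplatin mouse 2 the point for Adipoq lies behind that for Cidec.

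Retn, Rbp4, Nrg4 and Mest were low in muscle. Retn lay at 0.0820 to 3.67 CPM with vehicle and 0.750 to 4.46 CPM with oxaliplatin (0.57 ± 0.88, edgeR adjusted p = 0.925). Rbp4 lay at 0.246 to 4.41 and 0.550 to 2.26 CPM (-0.39 ± 0.65), Nrg4 at 0.448 to 2.46 and 0.400 to 1.38 CPM (-0.24 ± 0.49), and Mest at 1.15 to 2.23 and 1.40 to 3.25 CPM (0.22 ± 0.29). Mest varied least over the vehicle mice (SD 0.477 CPM on a mean of 1.80 CPM, n = 4), whereas the SD of Cfd, 80.4 CPM, was as large as its mean, 75.5 CPM. The signs of Cfd, Rbp4 and Nrg4 turned without vehicle mouse 4 (0.24, 0.42 and 0.57), so no direction is drawn for them. With oxaliplatin mouse 5 set to vehicle, as its treatment entry has it, 0 members were called and Retn was at -0.03.

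In hypothalamus the adipocyte hormones were at or near the limit of detection, while Mest, Rbp4 and Nrg4 were expressed. Lep had 0 to 5 reads per library over the 7 libraries, Retn 0 to 5, Adipoq 0 to 10 and Cfd 2 to 28, and these 4 genes did not pass the filter. A count of 0 in these libraries allows up to 0.103 to 0.123 CPM, for counting error only. Levels of Lep therefore could not be compared between the groups at this depth.

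Mest was 52.2, 59.2 and 57.1 CPM in vehicle mice 1, 2 and 4 and 40.6, 38.0, 38.1 and 52.1 CPM in oxaliplatin mice 2 to 5. Oxaliplatin mice 2 to 4 were close together and below all vehicle mice, and mouse 5 lay just under the lowest vehicle mouse. The log2 fold change was -0.41 ± 0.12 (edgeR adjusted p = 0.347). It was not called (background 28 of 18941 genes, 0.148%, of which 0 were lower), and 4.35% of genes had groups that did not overlap on the lower side. Without oxaliplatin mouse 5, Mest was called at -0.54 (edgeR adjusted p = 0.0146, 655 of 18781 genes called, 3.49%), and limma-voom with quality weights called it at -0.50 (363 genes, 1.92%). Endothelial markers (7 of 7 present) summed to 118 to 131 CPM with vehicle and 279.9 to 560.3 CPM with oxaliplatin, lowest in mouse 5. Vwf was 27.3 to 33.8 CPM with vehicle and 128 to 311 CPM with oxaliplatin, while Tek and Emcn overlapped. Astrocyte and oligodendrocyte markers (6 of 6 present) summed to 4210.3 to 4814 CPM with vehicle and 2477 to 4447 CPM with oxaliplatin. Oxaliplatin mouse 5 was the highest of its group, and 5 of the 6 genes had a log2 fold change below 0 and 1 above it. The part of either marker set in the Mest difference was not tested.

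Rbp4 lay at 4.58, 5.97 and 5.39 CPM with vehicle and 2.94, 7.73, 5.77 and 3.78 CPM in oxaliplatin mice 2 to 5 (-0.07 ± 0.30, edgeR adjusted p = 0.944). The oxaliplatin libraries spread to both sides of the vehicle libraries, and the sign turned when single libraries were left out. Nrg4 was 1.30, 0.612 and 1.22 CPM and 1.29, 1.52, 1.35 and 1.48 CPM (0.43 ± 0.31, adjusted p = 0.647).

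**Figure D4:**
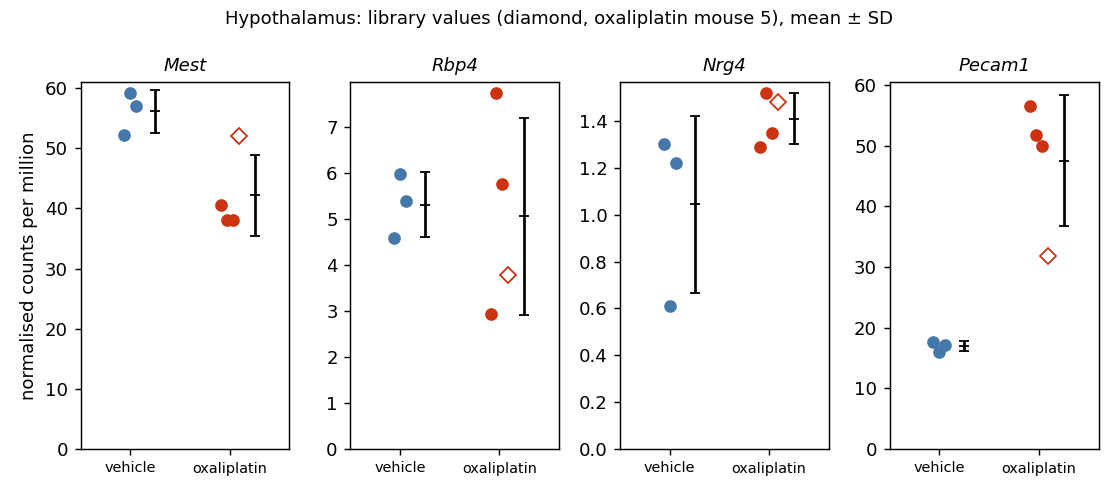
CPM (linear axes from 0) of Mest, Rbp4, Nrg4 and the endothelial marker Pecam1 in the 3 vehicle and 4 oxaliplatin hypothalamus libraries, with mean ± SD beside the points and oxaliplatin mouse 5 as a diamond. Mest is 52.2 to 59.2 CPM with vehicle and 38.0 to 52.1 CPM with oxaliplatin.

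The hypothalamus is where leptin and adiponectin act on feeding, so their receptors were read there. Of 10 receptors and carriers tested 0 were called (median 0.01), and Lepr was 5.40, 5.80 and 6.76 CPM with vehicle and 4.11, 10.5, 6.04 and 5.84 CPM in oxaliplatin mice 2 to 5 (0.15 ± 0.28, edgeR adjusted p = 0.868). Adipor2, an adiponectin receptor, was 72.2, 61.0 and 62.2 CPM and 83.6, 127, 115 and 87.4 CPM (0.66 ± 0.15, adjusted p = 0.237). Stra6 was at 1.09 ± 0.58, Cdh13 at -0.16 ± 0.11 and Tlr4, proposed as a resistin receptor, at 0.39 ± 0.27. Of 12 leptin signalling genes 0 were called (median 0.04): Irs2 was at 0.32 ± 0.11 (adjusted p = 0.414), Stat5b at -0.26 ± 0.14, Stat5a at -0.32 ± 0.19 and Ptpn1 at 0.16 ± 0.11.

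Apart from 2 endothelial markers, Pecam1 (1.49 ± 0.18, edgeR adjusted p = 0.0212) and Vwf (2.97 ± 0.30, adjusted p = 0.0193), the listed genes called in hypothalamus were Lcn2 and Cebpd, all named after their values were seen. Lcn2, which encodes the secreted protein lipocalin 2, rose from 0.155 ± 0.146 to 6.33 ± 3.85 CPM (5.31 ± 0.71, edgeR adjusted p = 0.0458), and Cebpd rose from 4.08 ± 0.906 to 23.8 ± 8.48 CPM (2.55 ± 0.34, adjusted p = 0.0483). Both calls lie close to the threshold, and without a single vehicle library edgeR called 0 to 1 genes in this tissue.

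**Figure D5:**
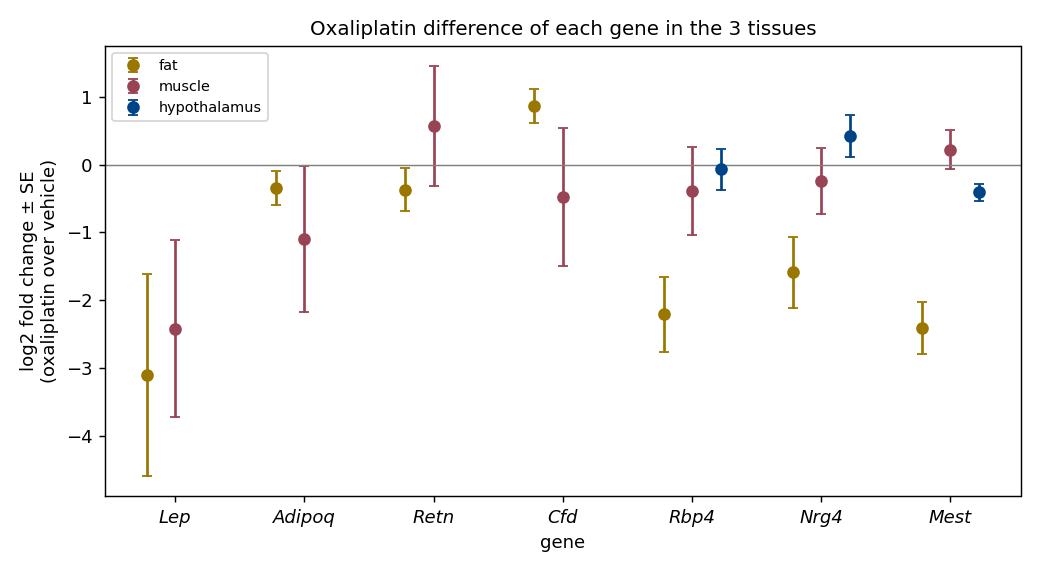
Log2 fold change (oxaliplatin over vehicle) ± SE of each gene in fat, muscle and hypothalamus; Lep, Adipoq, Retn and Cfd were not tested in hypothalamus. Mest lies at -2.41 in fat, 0.22 in muscle and -0.41 in hypothalamus.

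Whether the oxaliplatin difference itself differed between tissues was tested for each gene over the libraries of both tissues. Mest was called for fat minus muscle, at -2.62 ± 0.49 (edgeR adjusted p = 0.0412), against a background of 45 of 18862 genes (0.239%). The other 6 genes were not: Lep was at -0.71 ± 2.06, Adipoq 0.73 ± 1.30, Retn -0.94 ± 1.03, Cfd 1.34 ± 1.19, Rbp4 -1.82 ± 0.94 and Nrg4 -1.33 ± 0.78. With the animal as a block, Mest was at -2.73 (adjusted p = 0.216). The call was also lost without fat vehicle mouse 1 (adjusted p = 0.0689) or 4 (0.0758), or oxaliplatin mouse 2 (0.0531), 3 (0.0914) or 4 (0.0715), with differences of -2.61 to -2.29. It held without fat vehicle mouse 2 (-2.97, adjusted p = 0.0119) and without oxaliplatin mouse 5 (-2.93, adjusted p = 0.00145, 1626 of 18817 genes called, 8.64%). For fat minus hypothalamus, 0 members were called (background 65 of 20892 genes, 0.311%), and only 3 of them passed the filter in hypothalamus alone. Mest was at -1.99 ± 0.44 (adjusted p = 0.0619), Rbp4 at -2.12 ± 0.69 (adjusted p = 0.139) and Nrg4 at -2.01 ± 0.69 (adjusted p = 0.152). Without fat oxaliplatin mouse 5 these 3 were called, at -2.30, -2.84 and -2.39, and so was Lep (3151 of 20789 genes called, 15.2%). Because Lep was near the detection limit in hypothalamus, its call reflects the fat libraries and cannot compare the 2 tissues.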

How the data were processed

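RNA of fat, muscle and hypothalamus was sequenced, with RNA integrity above 8 per the series text, muscle libraries from a SMARTer kit and the others from a RiboErase kit, per the labels' protocols. The authors deposited tables of expected counts per gene, whose making no header describes and whose totals differ between libraries, in which 41.4% (fat), 45.7% (muscle) and 49.1% (hypothalamus) of values are not whole, and they were rounded to whole numbers. The submitters' processing notes name STAR 2.5.1a, Partek and DESeq2 without roles. The build was not given in the sources used here, but gene starts equalled those of GENCODE M21 (GRCm38) for at least 99.4% of shared identifiers, and coordinates are from that annotation. All per-sample columns matched samples, and no pair of libraries within a group was a copy (34 pairs, lowest chi-square per degree of freedom 6.75).

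Each tissue was fitted alone with edgeR 4.0.16 (R 4.3.3): filterByExpr (minimum count 10, total 15), TMM factors, robust quasi-likelihood F test and Benjamini-Hochberg adjustment over all genes tested. Differences between tissues were the tissue by treatment term of a joint fit. The SE is the log2 fold change divided by the square root of F. Log2 CPM used a prior count of 2. Marker levels are means of log2 CPM, compared by exact two-sided permutation of libraries. The plan held that 4 libraries against 3 could not pass 0.05, but the smallest p is 0.0286, and these values are used as a description. The plan also named a Benjamini-Hochberg adjustment over the members, which was not applied to the p-values given. Promoters are RefSeq windows matched by symbol, and all 7 genes matched.

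The genes, gene lists and tests were chosen with earlier results of these data known. Named genes are all 7 members, up to 4 genes of smallest p per list in fat (for receptors and leptin signalling also in hypothalamus), and the nearest genes by pattern (5 for Lep, 3 for each other). Some genes that this rule names are not reported here. Alternatives were DESeq2 1.42.0, limma 3.58.1 voom with and without quality weights, other library factors, other filters, replicate blocks and each library left out. In simulated fat data, 11% of genes changed by 1 log2 unit and 82% of those changed by 3 were recovered. Simulated counts varied independently, with no library that deviated in many genes at once, so these shares may not hold for the real fat libraries. Same-numbered mice of the 2 groups are different animals, and their deviations correlated at -0.28 to 0.17, so the main fits carry no block. Across tissues the same number and group may be the same animal, which the labels do not state, and those deviations correlated at -0.21 to 0.16.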

Additional observations from a re-analysis of the deposited data

Results flagged for a closer look

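For 3 of 28 groups of 4 or 5 libraries, 1 library lay far from the others for a member. The rule gives about 1 in 20 by chance for independent, normally distributed values. CPM values, some from few reads and some from the same library, need not meet that. In fat, oxaliplatin mouse 5 held 394 CPM of Lep, with the next library at 11.7 CPM. The same library held 68.5 CPM of Rbp4, with the next at 24.3 CPM. In hypothalamus, oxaliplatin mouse 4 held 0.384 CPM of Adipoq (10 reads), with the next at 0.0411 CPM.

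The oxaliplatin difference of Mest differed between fat and muscle by -2.62 on the log2 scale (edgeR adjusted p = 0.0412), and this call was lost under the alternatives given above.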

How the results depend on the processing

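In fat, 0 of 7 members were called by edgeR, 4 by DESeq2 and 6 by limma-voom with sample quality weights (genes called 0, 2428 and 5083), and 0 to 5 members and 0 to 4969 genes with single libraries left out. The upper ends came without oxaliplatin mouse 5, and 6 genes were called without mouse 2. For the gene lists in fat, each with 0 called by edgeR, alternatives added after seeing the data gave these counts with DESeq2 and without oxaliplatin mouse 5: other adipokines 11 and 19, receptors 2 and 3, leptin signalling with Lepr 1 and 3, complement 1 and 3, transcription factors 2 and 7, adiponectin assembly 1 and 1, imprinted genes 5 and 8. Over all genes tested, 12.2% were called with DESeq2 and 25.5% without oxaliplatin mouse 5. No member's sign turned in fat. With the mouse number as a replicate block, fat again gave 0 calls, and Lep was at -6.37 (edgeR adjusted p = 0.0647).

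In muscle no alternative called a member. Genes called there were 24 with edgeR, 254 with DESeq2, 13 with limma-voom, 42 with no filter, 3 with the replicate block, 0 with oxaliplatin mouse 5 as vehicle and 2 to 17 with a library left out. Signs turned for Cfd (0.36 with limma-voom, 0.93 with quality weights, 0.13 with the replicate block), Rbp4 (0.03 with limma-voom, 0.61 with quality weights), Adipoq (0.65) and Nrg4 (0.24) with quality weights, and Retn (-0.03) with mouse 5 as vehicle. With a library left out, Cfd ranged from -0.88 to 0.24, Rbp4 from -0.73 to 0.42 and Nrg4 from -0.48 to 0.57.

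In hypothalamus 0 members were called by edgeR, and 1, Mest at -0.50, with quality weights. Genes called were 28 with edgeR, 262 with DESeq2, 11 with limma-voom, 363 with quality weights, and 0 to 655 with a library left out (0 to 1 members). Rbp4 ranged from -0.36 to 0.12 with a library left out.

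For fat minus muscle, the animal as a replicate block called 0 members and 3 genes and turned Adipoq (-1.38) and Cfd (-0.38). With a library left out, 0 to 1 members and 14 to 1626 genes were called. For fat minus hypothalamus, the block called 0 genes, and a library left out gave 0 to 4 members and 12 to 3151 genes.

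Relative to adipocyte markers, leaving out a library gave 0.52 to 0.70 for Adipoq, 1.64 to 2.11 for Cfd, -1.59 to -1.22 for Rbp4 and -1.72 to -0.95 for Mest. The smallest possible p is then 0.0667 or 0.100, so none could pass. With the median of the markers, Adipoq was at 0.37 and Rbp4 at -1.64 (exact permutation p = 0.0571 each). The causes of these changes were not tested.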

Other observations

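Because Cfd is so abundant, the 7 genes together took a larger share of reads in oxaliplatin fat although 6 of them had a lower mean. They took 0.688%, 0.912% and 0.569% of counts in vehicle mice 1, 2 and 4, and 1.18%, 1.25%, 0.981% and 1.24% in oxaliplatin mice 2 to 5. The groups did not overlap in this share, whose lowest value was in vehicle mouse 4, the library high in muscle markers. In summed CPM they overlapped, at 7776, 8884 and 7127 with vehicle and 11464, 11422, 8404 and 11984 in oxaliplatin mice 2 to 5. In muscle the share of counts was 0.000934% to 0.0262% over the 9 libraries.

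In fat, several further listed genes had oxaliplatin mouse 5 closer to the vehicle libraries than oxaliplatin mice 2 to 4 were. As examples, 2 of them were picked after their values were seen. Agt, which encodes angiotensinogen, was 5.21, 12.6 and 28.4 CPM with vehicle and 542, 299, 118 and 32.1 CPM in oxaliplatin mice 2 to 5. Retnla, a relative of resistin, was 103, 193 and 112 CPM with vehicle and 2.06, 3.73, 2.36 and 44.9 CPM in oxaliplatin mice 2 to 5.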
